A study of Homo sapiens with 48 samples.

Results

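The response of HEK293 cells to simultaneous stimulation with angiotensin II (AII) and epidermal growth factor (EGF) was compared between 24 h and 6 h of exposure, to find which transcripts lost their response with time, which kept it and which responded only late. HEK293 is an established line derived from human embryonic kidney, and the cells used here were 1 clone that stably carried a transgene for the AII type 1 receptor (AT1R, gene AGTR1), obtained by puromycin selection and limiting dilution, with losartan present to keep the receptor from being activated by AII in serum. All groups, controls included, carried the transgene and were kept in serum-free medium. The 4 groups were control 6 h (4 libraries), AII + EGF 6 h (4 libraries), control 24 h (6 libraries) and AII + EGF 24 h (6 libraries), with EGF at 10 µg/L and AII at 1 nM. These 20 libraries were taken from the 48 of the series by their labels. Left out were 2 control libraries and 1 AII + EGF library at 6 h whose counts matched another library of a different group within sampling noise, and 1 AII + EGF library at 6 h whose label was in doubt. Nothing in the labels says whether libraries of a group came from separate cultures, so p-values measure the spread between these libraries. With 1 clone, a feature of the clone cannot be told apart from a feature of HEK293 cells.

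As background, the EGF receptor (EGFR) is a tyrosine kinase that signals through the RAS-ERK cascade, and AT1R is a receptor coupled to G proteins that raises intracellular calcium and can also activate ERK signalling. Both routes meet at serum response factor (SRF), which binds CArG boxes in promoters and switches on immediate-early genes within minutes. Their products, among them the EGR and AP-1 (FOS and JUN) transcription factors, act on later genes, and phosphatases, Sprouty proteins and NAB corepressors induced by the same signal limit it. An immediate-early wave is therefore known to be transient, whereas later waves can outlast it. In RNA from whole cultures, fewer responding cells and less RNA per cell cannot be told apart.

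Each gene was described by its response at 6 h (AII + EGF minus control), its response at 24 h, and the difference of both (24 h minus 6 h), all as log2 fold changes ± SE from 1 edgeR quasi-likelihood fit of 18698 genes. A gene was called when its Benjamini-Hochberg adjusted p over all genes was under 0.01, its change was at least 1.5-fold and its mean level passed 5 CPM (counts per 1e6 counts of the library, scaled with TMM factors). That mean was of AII + EGF for a rise, of control for a fall and the highest of the 4 groups for a difference. Below it a gene was not called whatever its fold. Adjusted p-values below are from this fit. The difference is a contrast of 4 groups, so a response can also shrink because the control changed: 872 genes (4.66% of those tested) were higher and 350 (1.87%) lower in control 24 h than in control 6 h.

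Library totals ranged from 18.4 M to 26.9 M counts (M, 1e6 counts, mean 22 M ± 2.07 M, SD, n = 20). AGTR1 was abundant throughout, at 3910 to 16000 CPM before scaling, and the neurofilament genes NEFL and NEFM, known to be expressed in HEK293 cells, were at 545 to 1500 and 2580 to 9350 CPM. Of the other genes listed to check the HEK293 clone, VIM was at 161 to 562 CPM, KRT8 at 19.4 to 130 and KRT18 at 30.8 to 95.6. LHX1 was low, at 7.26 to 15.8 CPM, and PAX2, at 0.264 to 3.66, stayed under 5 CPM. The kidney tubule marker UMOD was at 0 in all 20 libraries, and 14 markers of other cell types summed to 23.8 to 27.7 CPM in control 6 h, 18.5 to 25.7 in AII + EGF 6 h, 29.4 to 68.3 in control 24 h and 46.9 to 55.6 in AII + EGF 24 h, mostly from the collagen genes COL1A1 and COL3A1. The sample titles pass through the treatments in 8 successive runs, each at 1 time point, and the pair of 24 h libraries used here from run 8 (replicate 6 of both groups) stood apart. On a scale from the control 24 h mean (0) to the AII + EGF 24 h mean (1) over the 516 genes called at 24 h, AII + EGF replicate 6 was at 0.469 when the other 5 were at 1.01 to 1.23, and control replicate 6 was at -0.244 when the others were at -0.0585 to 0.219. On the scale from control 6 h to control 24 h (1222 genes), control 24 h replicate 6 was at 0.427 and the others at 1.02 to 1.27. The 6 h libraries showed no such gap, with AII + EGF at 0.988 to 1 and control at -0.0358 to 0.041 on their own scale (2242 genes). The main values hold all 20 libraries. Values without run 8 cover the responses at 6 h and 24 h and their difference. They are given where they change a described gene's call or move the count of a pattern or list by more than 1.5 times. The comparisons with each agent alone were not refitted without run 8. What sets run 8 apart was not tested.

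**Figure D1:**
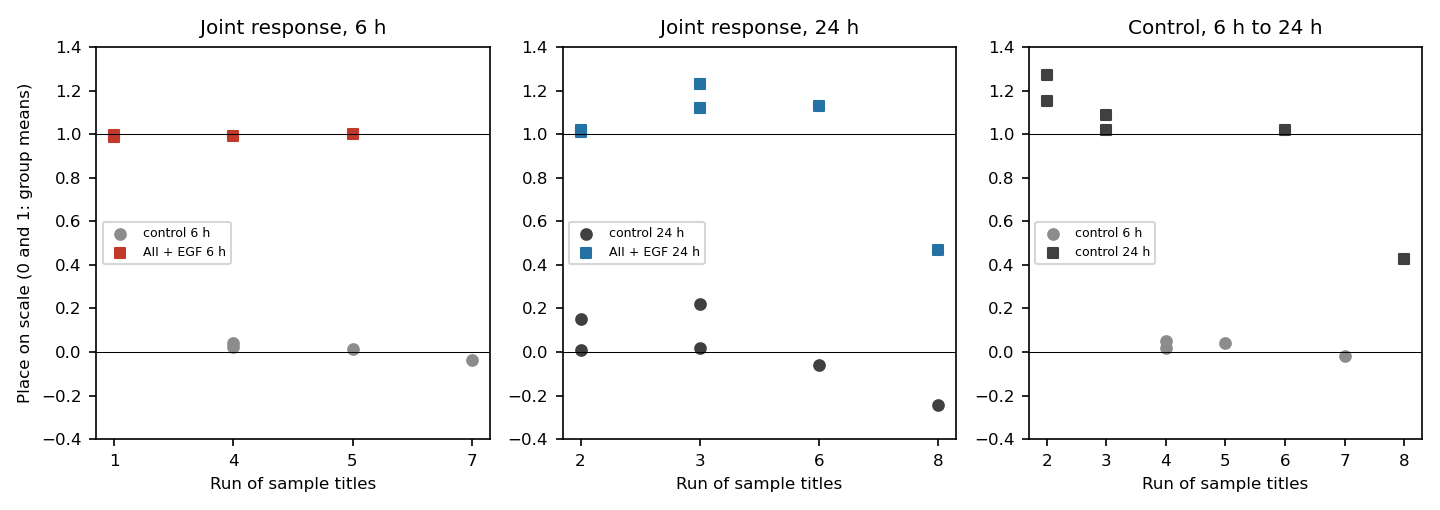
Place of each library (points) on a scale between 2 group means (0 and 1, no unit), by run of sample titles, for the joint response at 6 h, at 24 h and for the change of the control with time. The AII + EGF 24 h library of run 8 lies at 0.469 and the control 24 h library of run 8 at 0.427 on the control scale, away from the other libraries of their groups.

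Promoter sequences of 4 genes are shown because they stand for the kinetics described in the following paragraphs: EGR1 and its corepressor NAB2 for responses that shrank but persisted, TFPI2 for a response no longer called at 24 h, and LAMB3 for one that came late. Each is the 250 bases before a transcription start (RefSeq, GRCh38.p14), written 5′ to 3′ on the gene's own strand, with motif matches in capitals. The start shown is the first listed for the gene that held a motif searched for, so a match is present by choice. For EGR1, NAB2 and LAMB3 the kind of motif was also set beforehand. EGR1 (chr5:138465229-138465478, plus strand) holds a pair of CArG boxes, NAB2 (chr12:57088864-57089113, plus strand) an EGR site (GCGGGGGCG or GCGTGGGCG), TFPI2 (chr7:93890754-93891003, minus strand) an EGR site and an AP-1 site (TGANTCA), and LAMB3 (chr1:209651375-209651624, minus strand) an AP-1 site.
EGR1: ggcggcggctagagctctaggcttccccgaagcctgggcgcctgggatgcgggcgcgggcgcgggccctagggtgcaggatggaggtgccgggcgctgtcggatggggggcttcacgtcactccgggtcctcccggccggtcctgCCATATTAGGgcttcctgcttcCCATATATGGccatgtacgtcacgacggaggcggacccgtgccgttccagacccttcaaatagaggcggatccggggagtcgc
NAB2: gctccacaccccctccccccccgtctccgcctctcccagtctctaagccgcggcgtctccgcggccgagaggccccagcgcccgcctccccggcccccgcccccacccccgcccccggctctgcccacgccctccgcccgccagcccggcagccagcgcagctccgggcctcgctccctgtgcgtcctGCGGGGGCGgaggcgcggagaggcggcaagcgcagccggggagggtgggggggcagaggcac
TFPI2: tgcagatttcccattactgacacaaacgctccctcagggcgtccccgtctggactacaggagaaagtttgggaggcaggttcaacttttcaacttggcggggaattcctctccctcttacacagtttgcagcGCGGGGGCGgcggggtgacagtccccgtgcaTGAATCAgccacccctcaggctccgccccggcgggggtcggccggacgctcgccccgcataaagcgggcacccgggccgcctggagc
LAMB3: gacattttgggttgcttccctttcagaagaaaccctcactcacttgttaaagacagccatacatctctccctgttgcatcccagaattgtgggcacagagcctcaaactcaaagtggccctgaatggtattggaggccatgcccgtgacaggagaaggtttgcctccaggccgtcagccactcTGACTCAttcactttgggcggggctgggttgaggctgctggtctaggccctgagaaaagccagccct
Both strands were searched, also for the cyclic AMP element TGACGTCA, and the different matches shown in a sequence do not overlap. Over all 35116 promoters of 300 bases in the table, 1.29% held a CArG box, 1.85% the cyclic AMP element, 7.71% the AP-1 site and 5.77% the EGR site. Of the 12344 tested genes with an entry, 1.49%, 3.67%, 7.04% and 11.9% held them, in this order, in at least 1 promoter. A match is a description of the letters and not of binding. Shares were not compared between gene classes, because only 66.0% of the tested genes and 77.4% of the 718 faded rises had an entry, less than the 80% needed. Of 85 genes named by rule, 60 had an entry, and among those without one were ETV5, ETV4, KCNA1, ISM1 and SFPQ.

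The joint response was broad at 6 h and narrow at 24 h. At 6 h 1189 genes rose (6.36% of those tested) and 1053 fell (5.63%). At 24 h 323 rose (1.73%) and 193 fell (1.03%), 516 in all, and without AII + EGF 24 h replicate 6 alone 781 were called. The difference itself was called for 1921 genes, higher at 24 h for 959 (5.13%) and lower for 962 (5.14%), so that 49.9% of the calls were higher. With library totals in place of TMM factors 62.7% were higher, while the median difference of all tested genes moved from 0.01 to 0.08 (log2). Of the 6 h rises 11.4% were also called higher at 24 h, and of the 6 h falls 3.89% were also called lower. Seen from 24 h, 41.8% of the rises and 21.2% of the falls were already called at 6 h. Without run 8 the 24 h counts were 371 rises and 297 falls, the latter more than 1.5 times the main value, and the 2 shares of 6 h calls retained were 13.2% and 6.22%. Title runs are nested in time, so a run effect and a time effect on the controls cannot be told apart.

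6 patterns describe the called genes. A rise at 6 h with a lower response at 24 h is called a faded rise (718 genes), and a fall at 6 h with a higher response at 24 h a faded fall (639). A late rise (61) or late fall (45) was called at 24 h and in the difference, both in 1 direction, with no opposite call at 6 h. A further 135 genes rose and 41 fell at both times, some of them with a smaller response at 24 h and so also among the faded ones. The patterns are defined from these responses, so their medians are descriptions. The 6 h libraries enter the 6 h response and the difference with opposite signs, so both calls share their error.

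**Figure D2:**
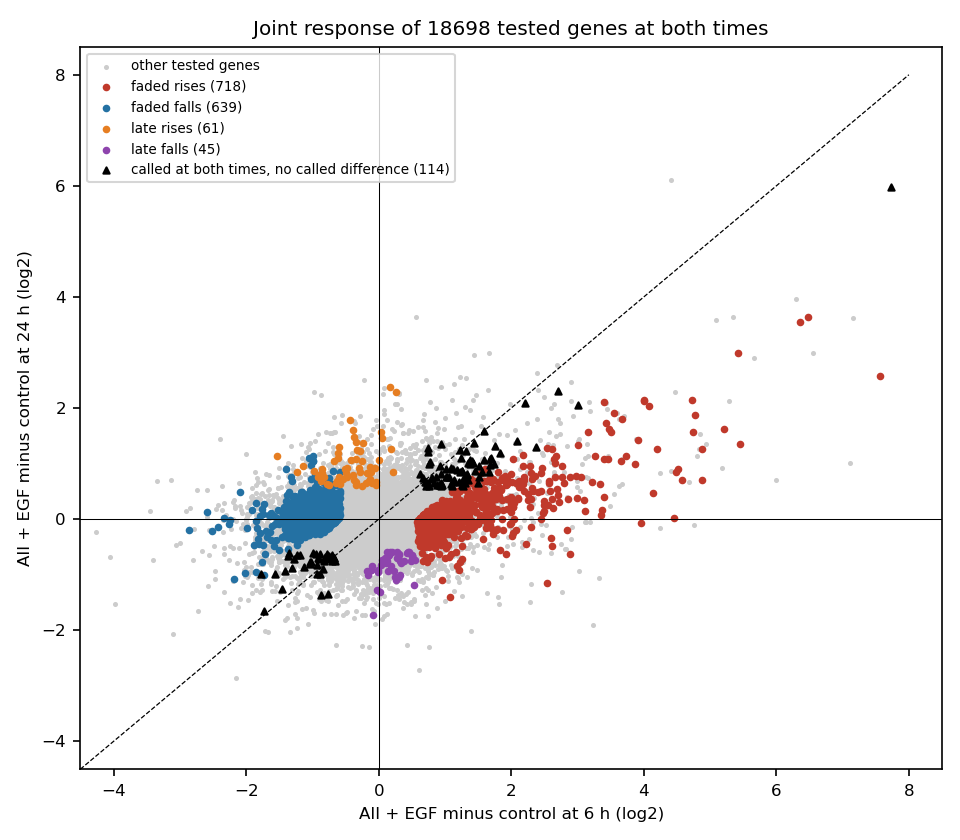
Response to AII + EGF at 6 h (x axis, log2) against 24 h (y axis, log2) for the 18698 tested genes, each a point, coloured by pattern, with the dashed line marking equal responses. Faded rises and falls lie near the line of no response at 24 h, and triangles mark the genes called at both times without a called difference.

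The faded rises had a median response of 1.07 at 6 h and 0.06 at 24 h (log2), against -0.04 and -0.01 over all tested genes. Of the 718, 648 were not called at 24 h, 57 were still called higher and 13 were called lower. Genes with an AII + EGF 24 h mean under 5 CPM, such as ISM1 (0.477) and TFPI2 (1.51), could not be called higher at 24 h. A missing call therefore does not by itself show a lost response. The median gene kept 5.02% of its 6 h log2 response at 24 h, with quartiles of -12% and 21.8%. Protein-coding genes made up 94.6% of them, against 74.7% of all tested genes. The share was alike in all rises called at 6 h (95.2%) and in the faded falls (94.2%), and called genes had to pass the CPM minimum. The control was also called higher at 24 h than at 6 h for 102 of the faded rises and lower for 43, against 872 and 350 of all 18698 tested genes.

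EGR1 (ENSG00000120738, GRCh38.p14 chromosome 5, 138465479 to 138469303), an immediate-early zinc finger transcription factor, was at 6.7, 6.87, 6.68 and 4.45 CPM in the control 6 h libraries and at 188, 209, 240 and 272 in AII + EGF 6 h. At 24 h control libraries ranged from 6.52 to 8.58 (median 7.04) and AII + EGF libraries from 8.06 to 34.1 (median 23.3). The groups were far apart at 6 h, and at 24 h they met only through replicate 6 of AII + EGF, the lowest of its group. The response rose by 5.20 ± 0.31 at 6 h (log2, adjusted p = 1.85e-11) and by 1.62 ± 0.23 at 24 h (adjusted p = 4.74e-05), a difference of -3.58 ± 0.36 (adjusted p = 2.44e-07). Its paralogue EGR3 had 44.6, 47.8, 48.1 and 46 CPM in AII + EGF 6 h against 1.87, 1.81, 1.44 and 1.23 in control, and 2.83 to 5.94 against 1.54 to 2.83 at 24 h. EGR3 was called at both times, with a difference of -3.60 ± 0.26 (adjusted p = 3.96e-09).

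FOS and EGFR shared a different course, in which the control moved as well. FOS, a subunit of AP-1, was at 14.6, 13.9, 10.5 and 12.1 CPM in AII + EGF 6 h against 1.92, 2.62, 1.82 and 2.07 in control 6 h. At 24 h control ranged from 1.23 to 7.68 (median 7.17) and AII + EGF from 1.51 to 7.64 (median 5.57), so both groups overlapped. The difference was -2.94 ± 0.52 (adjusted p = 0.00024), the control itself rose with time by 1.55 ± 0.39 (adjusted p = 0.00479), and replicate 6 was the lowest library of both 24 h groups. EGFR, the receptor for EGF, was at 46, 50, 43.9 and 44.6 CPM in AII + EGF 6 h against 16.4, 22.8, 19.5 and 17.3 in control 6 h, with no overlap. At 24 h it was at 24.9 to 33.2 (median 28.8) with AII + EGF and at 23.4 to 36.2 (median 29.3) in control. Its difference was -1.32 ± 0.17 (adjusted p = 5.7e-06), while the control rose with time by 0.64 ± 0.12 (adjusted p = 0.000541).

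For some faded rises the 24 h groups overlapped. ISM1 (isthmin 1, a secreted protein, chromosome 20, 13221274 to 13326723) was at 10.1, 10.6, 10.6 and 10.3 CPM in AII + EGF 6 h against 0.624, 0.542, 0.267 and 0.44 in control, and at medians of 0.53 and 0.505 at 24 h with overlapping groups. Its response was 4.45 ± 0.38 at 6 h (adjusted p = 4.08e-09) and 0.02 ± 0.36 at 24 h (adjusted p = 0.98), and the difference was -4.43 ± 0.52 (adjusted p = 2.29e-06). TFPI2, an inhibitor of serine proteases in the extracellular matrix, was at 11, 11.4, 18.9 and 17.6 CPM in AII + EGF 6 h against 0.374 to 0.572 in control, and its difference was -4.18 ± 0.38 (adjusted p = 7.26e-08). The GABA-B receptor subunit gene GABBR2 rose by 3.96 ± 0.25 at 6 h and had a difference of -4.03 ± 0.31 (adjusted p = 8.21e-09). The neurotensin receptor NTSR1, with 3.27 to 9.81 CPM in AII + EGF 6 h, had a difference of -3.87 ± 0.61 (adjusted p = 6.26e-05). IGFBP3, which binds insulin-like growth factors, had a difference of -3.70 ± 0.29 (adjusted p = 8.21e-09), but its 24 h groups did not overlap, with AII + EGF at 0.973 to 1.36 CPM and control at 1.86 to 2.71. Its 24 h response was -1.15 ± 0.19 (adjusted p = 0.000203) and was not called because the control mean was under 5 CPM. The largest fitted difference, -4.99 ± 1.03 (adjusted p = 0.00109), was that of the potassium channel gene KCNA1, at 20.6, 20.9, 17.8 and 17.9 CPM in AII + EGF 6 h and 0.108 to 0.378 in AII + EGF 24 h. Its controls held only 8 counts in all at 6 h and 6 at 24 h, so its fitted folds depend on the prior count, and without run 8 the difference was -3.78 (adjusted p = 0.0717) and without control 24 h replicate 6 alone -3.97 (adjusted p = 0.0592), neither of them called.

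**Figure D3:**
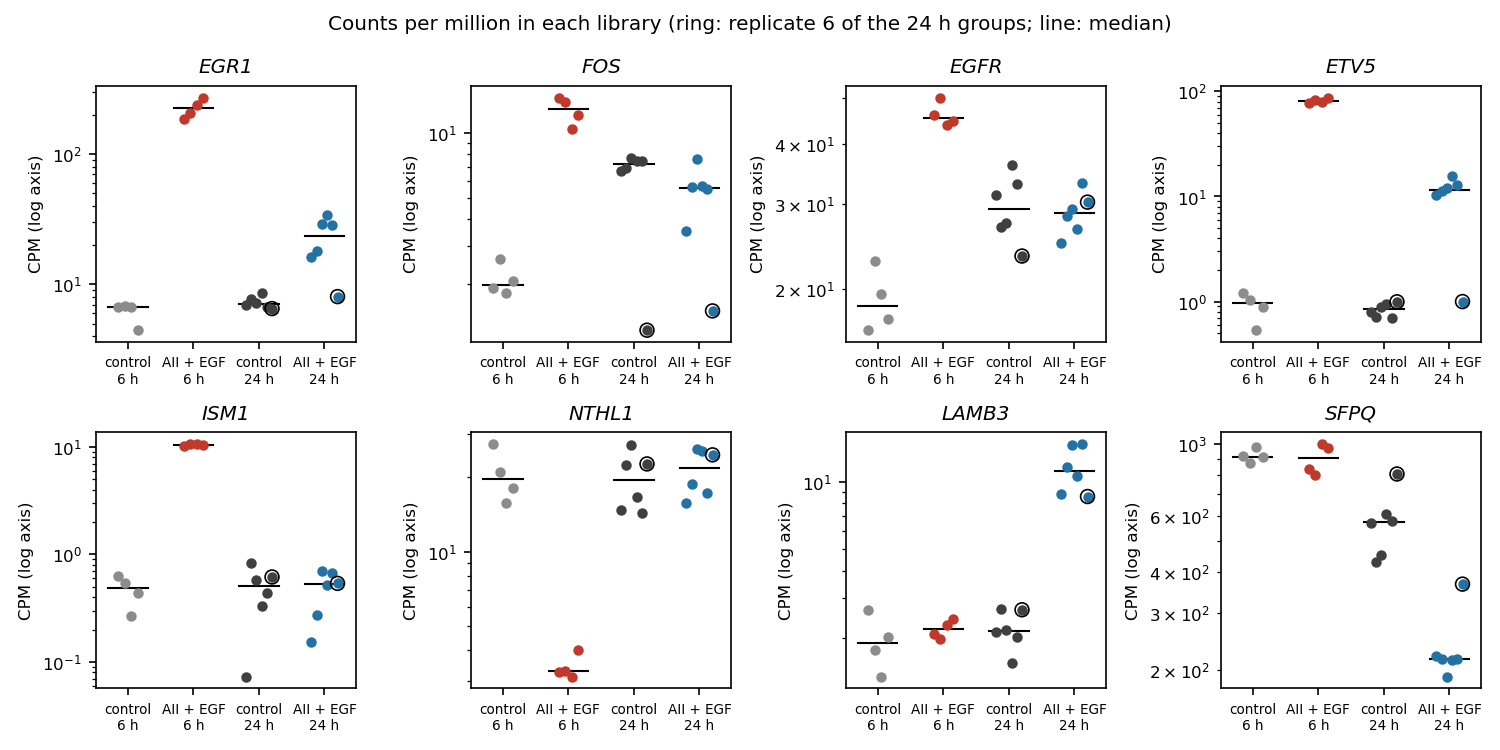
CPM (log axis) of 8 genes in each library (points) of the 4 groups, with the group median as a line and replicate 6 of the 24 h groups ringed. EGR1, FOS, EGFR, ETV5 and ISM1 are high in the 4 AII + EGF 6 h libraries, NTHL1 is low there, LAMB3 is high in AII + EGF 24 h only, and SFPQ is lowest in AII + EGF 24 h.

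The faded falls had medians of -0.91 at 6 h and 0.09 at 24 h. Of the 639, 612 were not called at 24 h, 5 were still called lower and 22 were called higher. NTHL1, a DNA glycosylase of base excision repair, had the largest difference, 2.71 ± 0.28 (adjusted p = 3.65e-07), with mean levels of 20.6 CPM in control 6 h, 3.42 in AII + EGF 6 h, 19.6 in control 24 h and 21.4 in AII + EGF 24 h. MAP2K6, a kinase upstream of p38, fell by 2.85 at 6 h (log2) and had a difference of 2.66 ± 0.23 (adjusted p = 4.47e-08). The zinc finger gene ZFP14 had a difference of 2.31 ± 0.25 (adjusted p = 8.16e-07), and FAXDC2 one of 2.28 ± 0.28 (adjusted p = 2.94e-06) beside a control that rose with time by 1.26 ± 0.18 (adjusted p = 5.98e-05). CORO6 had a difference of 2.59 ± 0.54 (adjusted p = 0.00109), and 1 of its control 6 h libraries (14.7 CPM) lay far above the others. RBL2, a pocket protein that holds cells in quiescence, fell by 1.19 at 6 h and returned to 56.9 CPM against 55.4 in control at 24 h, a difference of 1.23 ± 0.22 (adjusted p = 0.00021).

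In 35 genes the response changed sign, with a call at each time. A rise at 6 h became a fall at 24 h in 13 of them. PGBD5, a transposase-derived gene, went from 2.89 to -0.63 (log2) and HAS2, a hyaluronan synthase, from 1.26 to -0.71. A fall became a rise in 22 genes. TXNIP, which restrains glucose uptake and binds thioredoxin, was at 66.7, 58.1, 69.8 and 47.5 CPM in control 6 h and 22.2, 20, 23.2 and 26.5 in AII + EGF 6 h. At 24 h it ranged from 75.2 to 192 (median 178) in control and from 126 to 426 (median 323) in AII + EGF, and only the run 8 library of AII + EGF lay within the control range. Its response was -1.40 ± 0.27 at 6 h (adjusted p = 0.000325) and 0.91 ± 0.21 at 24 h (adjusted p = 0.0053), and its control rose with time by 1.43 ± 0.25 (adjusted p = 0.000272). HERPUD1, a component of the degradation machinery of the endoplasmic reticulum, went from -0.75 ± 0.18 to 0.74 ± 0.14, a difference of 1.49 ± 0.23 (adjusted p = 5.22e-05). The scavenger receptor gene SCARA5 went from -0.99 to 1.14 and the calcium-activated channel gene TRPM4 from -1.01 to 0.98. The histone genes H2AC18 and H2AC19, from -0.99 to 1.05 and 1.04, are near-identical copies between which reads could be split, so they count as 1 uncertain observation.

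Among the 135 rises called at both times, 57 had a called smaller rise at 24 h and 78 had no called difference. Their medians were 1.51 at 6 h and 0.82 at 24 h. ETV5, an ETS factor of the PEA3 group that acts downstream of ERK, was at 77.7, 83.4, 79.6 and 87.3 CPM in AII + EGF 6 h against 0.534 to 1.2 in control. At 24 h 5 of the AII + EGF libraries stood at 10.3 or more, and replicate 6 was at 1, next to controls of 0.7 to 0.995. ETV5 rose by 6.47 ± 0.49 at 6 h and 3.63 ± 0.38 at 24 h, with a difference of -2.85 ± 0.62 (adjusted p = 0.00172). ETV4 showed the same order, at 14.9 to 18.4 CPM at 6 h and 0.43 to 7.79 at 24 h, over controls of 6 and 11 counts in all, and its difference was not called (-1.76 ± 1.32, adjusted p = 0.373). ARC, an immediate-early gene known from neurons, was at 221, 264, 227 and 263 CPM at 6 h and 12.8 to 61.8 (median 47.6) at 24 h, over controls of 5.06 to 6.55 and 4.12 to 6.35 that it did not overlap at either time. Its difference was -2.43 ± 0.36 (adjusted p = 3.88e-05).

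KRT17 was called at both times. It was at 27.3, 29.3, 17.5 and 22.7 CPM at 6 h against 2.29 to 5.87 in control, and at 8.92 to 55.2 against 3.5 to 10.7 at 24 h, where only replicate 6 of AII + EGF lay within the control range. This keratin gene had a difference of -0.41 ± 0.49 (adjusted p = 0.597). ENO2, an enolase, rose by 1.75 ± 0.26 and 1.32 ± 0.21, and the alpha-arrestin gene ARRDC4 by 1.83 ± 0.26 and 1.20 ± 0.21. Their differences were -0.43 ± 0.33 (adjusted p = 0.385) and -0.63 ± 0.32 (adjusted p = 0.17), and that of ARRDC4 was called without run 8 (-0.64, adjusted p = 0.00889). The AT1R transgene, AGTR1, rose by 1.22 ± 0.20 at 6 h and 0.84 ± 0.16 at 24 h, with a difference of -0.38 ± 0.25 (adjusted p = 0.306), and its control rose with time by 0.79 ± 0.18 (adjusted p = 0.00263). Its reads come from the transgene and any endogenous copy together.

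Of the 41 falls called at both times, 36 had no called difference, and the medians of the 41 were -0.99 and -0.75. Long non-coding RNAs (lncRNAs) made up 14 of the 41. They were 2990 of all 18698 tested genes, 67 of the 1053 falls called at 6 h and 42 of the 193 called at 24 h. GJB7, a connexin gene, had mean levels of 7.37 and 2.21 CPM in control and AII + EGF at 6 h and of 6.52 and 2.04 at 24 h, with a difference of 0.08 ± 0.29 (adjusted p = 0.887). The cytochrome P450 gene CYP4X1 fell by 1.45 and 1.26 (log2), with a difference of 0.20 ± 0.44 (adjusted p = 0.8), and its highest AII + EGF 24 h library (14 CPM) was that of run 8. Both differences were below 0 without run 8, at -0.16 for GJB7 and for CYP4X1, and neither was called. The cathepsin gene CTSO had a difference of 0.57 ± 0.27 (adjusted p = 0.13). KBTBD7, a substrate adaptor of ubiquitin ligases, fell at both times but by less at 24 h, with a difference of 1.10 ± 0.23 (adjusted p = 0.00115). Without run 8 there were 68 falls and 162 rises called at both times, and without AII + EGF 24 h replicate 6 alone 67 and 182.

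The late rises numbered 61, with medians of -0.38 at 6 h and 0.85 at 24 h. There were 78 without run 8 and 94 without AII + EGF 24 h replicate 6 alone. The control was called higher at 24 h for 17 of the 61, and for 872 of all 18698 tested genes. In 54 of the 61 the sign at 6 h was opposite to that at 24 h, whereas the signs matched in 10476 of all tested genes. A late rise needs a difference called higher, which favours values below 0 at 6 h, so the 54 are a description of the pattern. A fall at 6 h could not be called where the control 6 h mean was under 5 CPM. This was so for all late rises named in this paragraph (control 6 h means of 0.957 to 3.39 CPM). LAMB3, the beta 3 chain of laminin 332 in basement membranes, was at 2.08, 1.97, 2.28 and 2.43 CPM in AII + EGF 6 h, within the control range of 1.34 to 2.65. At 24 h AII + EGF ranged from 8.57 to 14.7 (median 11.1) and control from 1.55 to 2.7 (median 2.14), without overlap. The response was 0.17 ± 0.23 at 6 h (adjusted p = 0.624) and 2.37 ± 0.18 at 24 h (adjusted p = 1.79e-08), a difference of 2.20 ± 0.29 (adjusted p = 9.81e-06). PLAAT3, a phospholipase, rose by 2.29 ± 0.22 at 24 h after 0.27 ± 0.30 at 6 h. MVP, the major vault protein, had mean levels of 9.32 and 32.3 CPM in control and AII + EGF at 24 h and a difference of 2.23 ± 0.43 (adjusted p = 0.000643), with a control that rose with time by 1.45 ± 0.31 (adjusted p = 0.00139). The small GTPase gene RAB26 had a difference of 2.11 ± 0.38 (adjusted p = 0.000259), part of it from lower levels at 6 h. RAB26 was then at 0.371 to 1.07 CPM under AII + EGF and 1.39 to 1.92 in control, without overlap. At 24 h its groups overlapped, at 7.51 to 10.5 and 2.97 to 7.73 CPM. The interferon-related gene SLFN5 had a difference of 1.99 ± 0.47 (adjusted p = 0.00342, or 0.0105 when AII + EGF 6 h replicate 5 was left out) and the proteoglycan gene SPOCK2 one of 1.91 ± 0.31 (adjusted p = 8.64e-05). ERBB3, a partner of EGFR, was at 0.783 against 1.2 CPM at 6 h and 6.32 against 2.76 at 24 h (means), and its difference was 1.81 ± 0.31 (adjusted p = 0.000206).

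The late falls numbered 45, with medians of 0.20 at 6 h and -0.75 at 24 h. This count depended on run 8: without it there were 91, without AII + EGF 24 h replicate 6 alone 101, and without control 24 h replicate 3 there were 84. Among those with the largest differences were the nuclear RNA-binding protein genes SFPQ, HNRNPM and SRSF1. SFPQ, a paraspeckle protein, was at 840, 805, 1000 and 972 CPM in AII + EGF 6 h and at 874 to 982 in control 6 h, and the groups overlapped. At 24 h AII + EGF ranged from 190 to 368 (median 216) and control from 432 to 808 (median 575), without overlap, and the highest AII + EGF value was again replicate 6. SFPQ fell by 1.28 at 24 h (adjusted p = 7.78e-06), with a difference of -1.25 ± 0.24 (adjusted p = 0.000469). HNRNPM and the splicing factor SRSF1 had differences of -1.28 ± 0.24 (adjusted p = 0.000493) and -1.35 ± 0.27 (adjusted p = 0.000716). In the control SFPQ and HNRNPM fell with time, by 0.68 and 0.65 (log2), and the value of SRSF1 was -0.63 ± 0.19 (adjusted p = 0.0131). LCMT2 and TTC30A were at -1.35 ± 0.29 (adjusted p = 0.00142) and -1.29 ± 0.24 (adjusted p = 0.000442).

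The pathway lists are ordered from signal to target. Their counts stand beside the shares of all tested genes, which were 6.36% higher and 5.63% lower at 6 h, 1.73% and 1.03% at 24 h, and 5.13% and 5.14% for the difference, and a list near these shares gives no result of its own. Lists and members were chosen with earlier results of these data known, so larger shares are descriptions and were not tested. Members were also not matched in level to all tested genes, of which those under 5 CPM could not be called. Of 24 tested immediate-early genes, mostly for transcription factors, 13 rose at 6 h (54.2%), 3 were called higher at 24 h (EGR1, EGR3 and ARC), and 12 had a lower response at 24 h (50%), with medians of 1.06 at 6 h, 0.18 at 24 h and -1.08 for the difference. The AP-1 subunits FOSL1 (-2.68 ± 0.3, adjusted p = 1.09e-06), JUNB (-1.93 ± 0.22, adjusted p = 1.83e-06) and FOSL2 (-1.59 ± 0.13, adjusted p = 2.17e-08) were among the 12, as were the orphan nuclear receptors NR4A1, NR4A2 and NR4A3, at -1.6, -0.92 and -2.06. Higher at 24 h than at 6 h was the response of MYC (0.8 ± 0.17, adjusted p = 0.00137), IER5 and KLF4, none of them called at a single time. All 3 tested PEA3 factor genes rose at 6 h, and ETV1, with a difference of -2.59 ± 0.56 (adjusted p = 0.00165), joined ETV5 among the 2 with a lower response at 24 h. The 24 h mean of ETV1 was 1.33 CPM under AII + EGF, too low for a call, against 0.292 in control.

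Of 22 genes listed for feedback on the ERK pathway or its targets 10 rose at 6 h (45.5%), 5 were called higher at 24 h and 7 had a lower response at 24 h (31.8%, medians 1.30, 0.52 and -0.60). NAB2, the corepressor of EGR factors, was at 83.2, 84.2, 80.2 and 90.1 CPM in AII + EGF 6 h against 5.63 to 8.21 in control, and at 18.1 to 26 against 8.64 to 15.4 at 24 h, without overlap at either time. Its difference was -2.60 ± 0.21 (adjusted p = 9.16e-09). The ERK phosphatase gene DUSP5 (-1.48 ± 0.21, adjusted p = 2.75e-05), the Sprouty genes SPRY1 and SPRY2 (-1.34 and -1.22), SPRED1 and SPRED2 (-1.59 and -1.41) and IER3 (-1.91 ± 0.31, adjusted p = 9.02e-05) made up the 7 with it. DUSP4 was called at both times, with a difference of -0.70 ± 0.23 (adjusted p = 0.0272) that was called without run 8 (-0.69, adjusted p = 0.00374). ERRFI1, which binds and inhibits EGFR, was also called at both times (0.75 and 0.6), with a difference of -0.15 ± 0.16 (adjusted p = 0.551). Of 9 genes for ERBB receptors, their ligands and AT1R, 3 rose at 6 h, 2 were called higher at 24 h, 2 had a lower response at 24 h (EGFR and the EGFR ligand HBEGF, -0.97 ± 0.2, adjusted p = 0.000888) and 1, ERBB3, a higher one.

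Of 29 MRTF-SRF cytoskeletal genes 9 rose and 1 fell at 6 h, 1 (FLNA, a filamin that crosslinks actin) was called higher at 24 h, and 4 had a lower response at 24 h (13.8%), TPM4 among them (-0.74 ± 0.16, adjusted p = 0.00152). Without run 8 that last count was 1. FLNA rose by 0.94 ± 0.14 and 0.66 ± 0.11, with a difference of -0.29 ± 0.18 (adjusted p = 0.27). CCN2, a matricellular protein, rose by 0.95 ± 0.22 at 6 h and had a difference of -0.73 ± 0.28 (adjusted p = 0.062), and ACTA2, smooth muscle actin, was not called at either time (-0.72 ± 0.29 and -0.54 ± 0.23). The list's medians were 0.27, 0.14 and -0.28. Of 22 genes for proteases, their inhibitors and matrix, 8 rose and 1 fell at 6 h, 4 were called higher at 24 h, 3 had a lower response at 24 h (13.6%) and 1 (LAMB3) a higher one (medians 0.67, 0.38 and -0.21). The stromelysin gene MMP10 was at 30.2, 28.7, 32.1 and 33.8 CPM in AII + EGF 6 h and 0.502 to 3.56 at 24 h. Its controls were at 0.271 to 0.641 CPM at 6 h and 0 to 0.397 at 24 h, without overlap at either time. A rise at 24 h could not be called, as the AII + EGF mean of 2.39 CPM was under 5. The difference of MMP10 was -2.81 ± 0.77 (adjusted p = 0.00974). It missed the threshold without run 8 (-2.38, adjusted p = 0.012) and without any 1 of 12 of the 20 libraries (adjusted p from 0.0131 to 0.0379). SERPINB2, an inhibitor of urokinase, rose by 7.15 ± 0.50 at 6 h over controls near 0, and its difference of -3.53 ± 1.17 (adjusted p = 0.0319) was not called. At 24 h SERPINB2 was at 0.143 to 1.05 CPM against 0 to 0.133 in control, without overlap but under the 5 CPM minimum.

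The largest count of rises at 6 h among the lists was that of HIF target and glycolysis genes, 22 of 32 tested (68.8%), and 13 of them had a lower response at 24 h (40.6%), when 1 (ENO2) was called higher. Without run 8, 3 were called higher and 2 lower at 24 h and 16 had a lower response, and PDK1 was 1 of the 2 (-0.85, adjusted p = 0.000139). Their medians were 0.89 at 6 h, 0.01 at 24 h and -0.82 for the difference. The glucose transporter gene SLC2A1 had mean levels of 61.2 and 375 CPM in control and AII + EGF at 6 h and of 79.1 and 56.2 at 24 h, with a difference of -3.11 ± 0.27 (adjusted p = 3.39e-08). The genes for hexokinase HK2 (-2.04 ± 0.24, adjusted p = 2.42e-06), the glycolysis-limiting PFKP (-1.48 ± 0.22, adjusted p = 4.29e-05), the pyruvate dehydrogenase kinase PDK1 (-1.99 ± 0.33, adjusted p = 0.000117) and lactate dehydrogenase LDHA (-1.55 ± 0.39, adjusted p = 0.00568) followed it. SLC2A3 had a difference of -2.20 ± 0.49 (adjusted p = 0.00199), but its control also rose with time by 2.00 ± 0.38 (adjusted p = 0.000492), and it was called higher at 24 h without run 8 (0.74, adjusted p = 0.004). The oxygen-sensing enzyme gene EGLN3 had a difference of -1.58 ± 0.34 (adjusted p = 0.00145).

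Of 24 unfolded protein response and endoplasmic reticulum chaperone genes, 11 rose and 1 fell at 6 h, 2 were called higher at 24 h, and 9 had a lower (37.5%) and 1, HERPUD1, a higher response at 24 h (medians 0.53, 0.15 and -0.48). The co-chaperone gene DNAJB11 had a difference of -1.34 ± 0.17 (adjusted p = 6.21e-06) and HYOU1 one of -1.1 ± 0.15 (adjusted p = 8.72e-06), whereas the chaperone gene HSPA5 rose at both times, by 1.33 ± 0.18 and 0.81 ± 0.14, with a difference of -0.53 ± 0.22 (adjusted p = 0.0932). Of 35 ribosome biogenesis genes 8 rose at 6 h, 0 were called at 24 h and 14 had a lower response at 24 h (40%), 6 of which had been called at 6 h (medians 0.45, -0.10 and -0.58). The nucleolar helicase gene DDX21 had a difference of -0.91 ± 0.19 (adjusted p = 0.000966). UTP20, with -0.93 ± 0.21 (adjusted p = 0.00224), also fell with time in the control, by 0.91 (adjusted p = 0.000132), and NOP58, at -0.84 ± 0.28 (adjusted p = 0.0312), was not called. Of 38 ATF4 target and tRNA synthetase genes 14 rose and 2 fell at 6 h, 8 were called higher at 24 h, 5 had a lower (13.2%) and 3 a higher response (7.89%) at 24 h (medians 0.47, 0.31 and -0.20). SLC7A5, an amino acid transporter, had a difference of -1.34 ± 0.20 (adjusted p = 3.68e-05). The asparagine synthetase gene ASNS and the glutathione-degrading CHAC1 were called at 24 h but not at 6 h, with differences of 0.80 ± 0.41 (adjusted p = 0.176) and 1.48 ± 0.49 (adjusted p = 0.0317) that were not called.

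**Figure D4:**
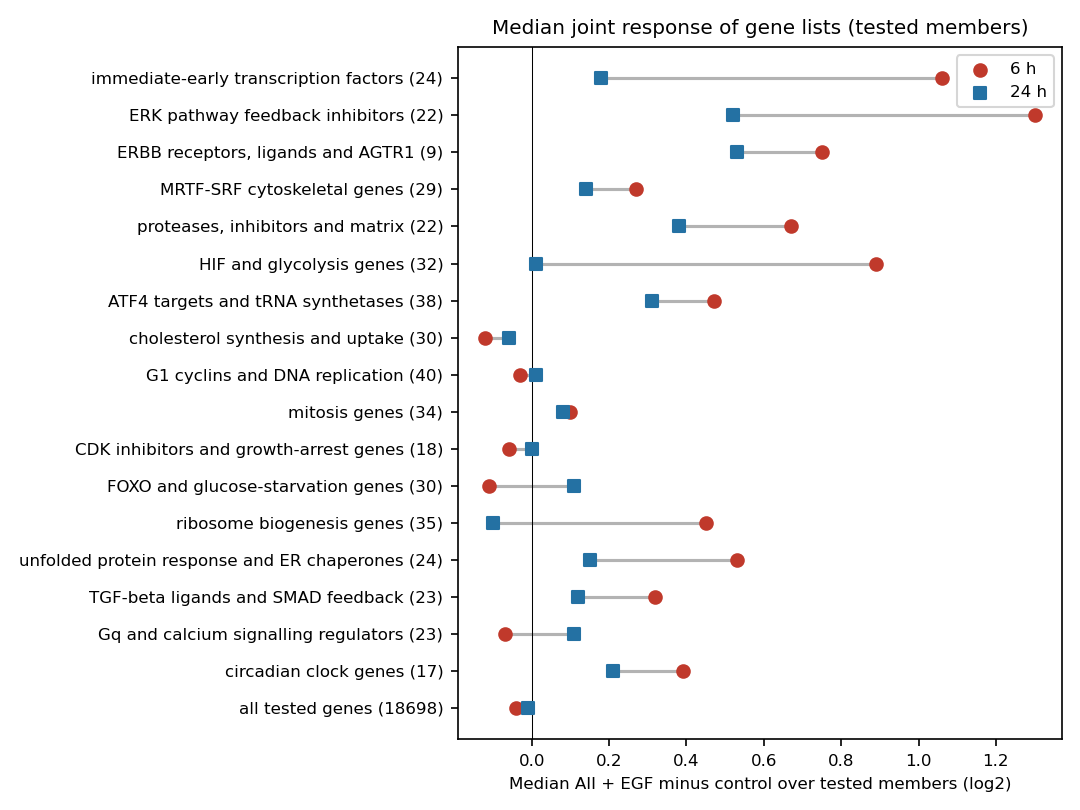
Median response to AII + EGF over the tested members of each gene list (log2, number tested in brackets) at 6 h (red circles) and 24 h (blue squares), joined by a line. The PEA3 factors, with medians of 6.48 and 3.63, are left out for scale, and the medians of HIF and glycolysis genes go from 0.89 to 0.01.

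Of 30 FOXO and glucose-starvation genes, normally held down by growth factor signalling, 4 rose and 6 fell at 6 h, 3 were called higher at 24 h, and 8 had a higher (26.7%) and 3 a lower response (10%) at 24 h (medians -0.11, 0.11 and 0.23). DEPP1, a FOXO target, had a difference of 2.07 ± 0.39 (adjusted p = 0.000442), FOXO4 one of 1.45 ± 0.13 (adjusted p = 8.07e-08) and YPEL3 one of 1.33 ± 0.27 (adjusted p = 0.00101). The 24 h response of DEPP1 (0.75, adjusted p = 0.0319) was not called, and without run 8 it was (0.77, adjusted p = 0.0076). Of 18 CDK inhibitor and growth-arrest genes 4 rose and 2 fell at 6 h, 1 (CDKN2D, 0.63 ± 0.12) was called higher at 24 h, and 2 had a lower and 2 a higher response at 24 h (11.1% each, medians -0.06, 0 and 0.32). GADD45B, a stress-response gene, had a difference of -1.31 ± 0.22 (adjusted p = 0.000135). Without run 8, 2 were called higher at 24 h, with GADD45B added (0.65, adjusted p = 0.00245), and the difference of CDKN2D (0.65, adjusted p = 0.0162) was called (0.72, adjusted p = 0.00814). Of 40 genes for G1 cyclins and DNA replication 4 rose and 1 fell at 6 h, 0 were called at 24 h, 2 had a lower response at 24 h (CCND1, -0.65 ± 0.13, and RRM2, -0.83 ± 0.16) and 1 a higher one. These shares (5% and 2.5%) were no larger than those of all tested genes. The gene with the higher response was the licensing factor gene CDT1, which fell by 0.85 at 6 h and had a difference of 1.37 ± 0.29 (adjusted p = 0.00151). The differences of CCNE2 (-0.89 ± 0.25, adjusted p = 0.0114) and POLA1 (-0.57 ± 0.19, adjusted p = 0.0351) were not called, but were under several alternatives, among them without run 8 (-0.85, adjusted p = 0.00862, and -0.62, adjusted p = 0.00387). Without run 8 POLA1 was also called lower at 24 h (-0.61, adjusted p = 0.000206), and the difference of CCND1 (-0.58) was under 1.5-fold. Of 34 mitosis genes 0 were called in any of the 3 contrasts in the edgeR fit, among them MKI67 (difference -0.11 ± 0.29, adjusted p = 0.824), PTTG1 (0.20 ± 0.20), CENPE (-0.80 ± 0.64) and CENPF (-0.54 ± 0.40).

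Of 17 circadian clock genes 4 rose and 1 fell at 6 h, 2 were called higher at 24 h, and 5 had a lower (29.4%) and 2 a higher response (11.8%) at 24 h (medians 0.39, 0.21 and -0.14). Without run 8, 4 had a higher response. The clock repressor gene BHLHE40 had a difference of -2.08 ± 0.41 (adjusted p = 0.000775), the activator gene NPAS2 one of -1.82 ± 0.17 (adjusted p = 1.11e-07) and CRY1 one of -1.28 ± 0.15 (adjusted p = 3.03e-06). The output factor gene TEF was a late rise, with a difference of 1.72 ± 0.27 (adjusted p = 5.72e-05), and without run 8 it was also called lower at 6 h (-0.68, adjusted p = 0.00106). PER1 was called higher at 24 h (0.70 ± 0.13, adjusted p = 0.000725), and its difference (0.69 ± 0.21, adjusted p = 0.0175) was called without run 8 (0.75, adjusted p = 0.0041). Of 23 TGF-beta ligand and SMAD feedback genes 5 rose and 3 fell at 6 h, 0 were called at 24 h and 6 had a lower response at 24 h (26.1%, medians 0.32, 0.12 and -0.18). The ligand gene TGFB1 rose by 2.77 ± 0.37 at 6 h and had a difference of -1.81 ± 0.46 (adjusted p = 0.0054), which missed the threshold without any 1 of 5 libraries (AII + EGF 6 h replicates 1 and 5, control 6 h replicates 5 and 6 and control 24 h replicate 3, adjusted p from 0.0104 to 0.0158). Its 24 h response (0.96, adjusted p = 0.024) was not called, and without run 8 it was (0.94, adjusted p = 0.00349), the 1 call of the list at that time. The BMP antagonist gene NOG had a difference of -2.06 ± 0.42 (adjusted p = 0.00101) at a level near the 5 CPM minimum, which it missed when run 8 or AII + EGF 6 h replicate 1 was left out.

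Of 30 cholesterol synthesis and uptake genes 3 rose (10%) and 5 fell (16.7%) at 6 h, 0 were called at 24 h and 2 had a lower response at 24 h (6.67%), among them INSIG1 (-1.31 ± 0.13, adjusted p = 2.44e-07), which restrains sterol synthesis, with medians of -0.12, -0.06 and -0.05. Without run 8, 4 had a lower response and 1 a higher one. Of 23 Gq and calcium signalling regulator genes 3 rose and 1 fell at 6 h, 0 were called at 24 h, 2 had a lower response at 24 h, RCAN1 (-0.81 ± 0.14, adjusted p = 0.000174) and PRKCD, and 1, ITPR1, a higher one (0.96 ± 0.2, adjusted p = 0.000968), with medians of -0.07, 0.11 and 0.02 and shares of 8.7% and 4.35% for the difference. The differences of RCAN2 (1.33 ± 0.40, adjusted p = 0.0178) and RGS3 (1.21 ± 0.35, adjusted p = 0.014) were not called, and that of RGS3 was called without run 8 (1.14, adjusted p = 0.00842).

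The change between 6 h and 24 h under both agents was then set against that under each agent alone, in a fit of 38 libraries in 8 groups. Here the controls cancel, and the joint libraries are shared by both comparisons. This fit was not repeated without run 8, whose EGF 24 h library was the lowest of its group for EGR1 (6.43 CPM). Against EGF alone, the change with time was higher for 165 of 19626 genes (0.841%) and lower for 169 (0.861%). The sum of 334 fell to 204, 202 or 180 when 1 of the EGF 6 h libraries (replicates 3, 4 and 5) was left out. Against AII alone it was higher for 651 (3.32%) and lower for 700 (3.57%). For EGR1 the change was not called against EGF (-1.21 ± 0.41, adjusted p = 0.0812) and was lower against AII (-3.52 ± 0.40, adjusted p = 1.09e-07). EGR1 levels under EGF alone were 112, 111 and 122 CPM at 6 h and 6.43, 25.6, 27.5, 30.9 and 36.9 at 24 h, and under AII alone 6.23 to 8.63 and 6.68 to 10.7. The 24 h levels under EGF therefore overlapped those under AII + EGF, while the 6 h levels did not. EGR3 was lower in both comparisons, by 1.75 (adjusted p = 0.0004) and 2.52 (adjusted p = 1.77e-07) on the log2 scale.

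For some genes the change with time was lower under both agents than under either alone, which does not require a fall under a single agent. For EGFR the medians at 6 h and 24 h were 31.6 and 33.5 CPM under EGF and 25.4 and 29.7 under AII. For ISM1 the change was -2.59 ± 0.44 against EGF (adjusted p = 0.000274) and -3.37 ± 0.46 against AII (adjusted p = 1.27e-06), from mean 6 h levels of 2.06 CPM under EGF, 0.775 under AII and 10.4 under both. SERPINB2 (-3.91 ± 0.58, adjusted p = 4.31e-05, and -3.50 ± 0.57, adjusted p = 2.9e-05) and EGFR (-0.76 ± 0.18, adjusted p = 0.00647, and -0.84 ± 0.16, adjusted p = 0.000263) were also called in both. ARC was called in both, at -1.75 ± 0.38 (adjusted p = 0.00432) and -2.32 ± 0.37 (adjusted p = 2.19e-05). In the other direction, NTHL1 returned from a deeper 6 h fall under both agents (1.35 ± 0.27, adjusted p = 0.00165, and 2.26 ± 0.25, adjusted p = 3.92e-08). Of the late rises named, LAMB3, SPOCK2 and ERBB3 were higher in both comparisons. The values were 1.55 ± 0.30 (adjusted p = 0.00102) and 1.65 ± 0.28 (adjusted p = 5.53e-05) for LAMB3, 1.4 ± 0.29 (adjusted p = 0.00251) and 1.45 ± 0.28 (adjusted p = 0.000253) for SPOCK2, and 1.36 ± 0.30 (adjusted p = 0.00483) and 1.64 ± 0.29 (adjusted p = 8.74e-05) for ERBB3. LAMB3 had 24 h levels of 8.58 to 14.7 CPM under both agents, 3.19 to 5.03 under EGF and 2.58 to 3.6 under AII. For the late fall of SFPQ the change was not called against EGF (-0.26 ± 0.26, adjusted p = 0.622) and was lower against AII (-1.12 ± 0.24, adjusted p = 0.000794), with 24 h levels of 247 to 476 CPM under EGF and 400 to 734 under AII. An effect called against AII and not against EGF is not thereby shown to differ between them, and that was not tested.

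**Figure D5:**
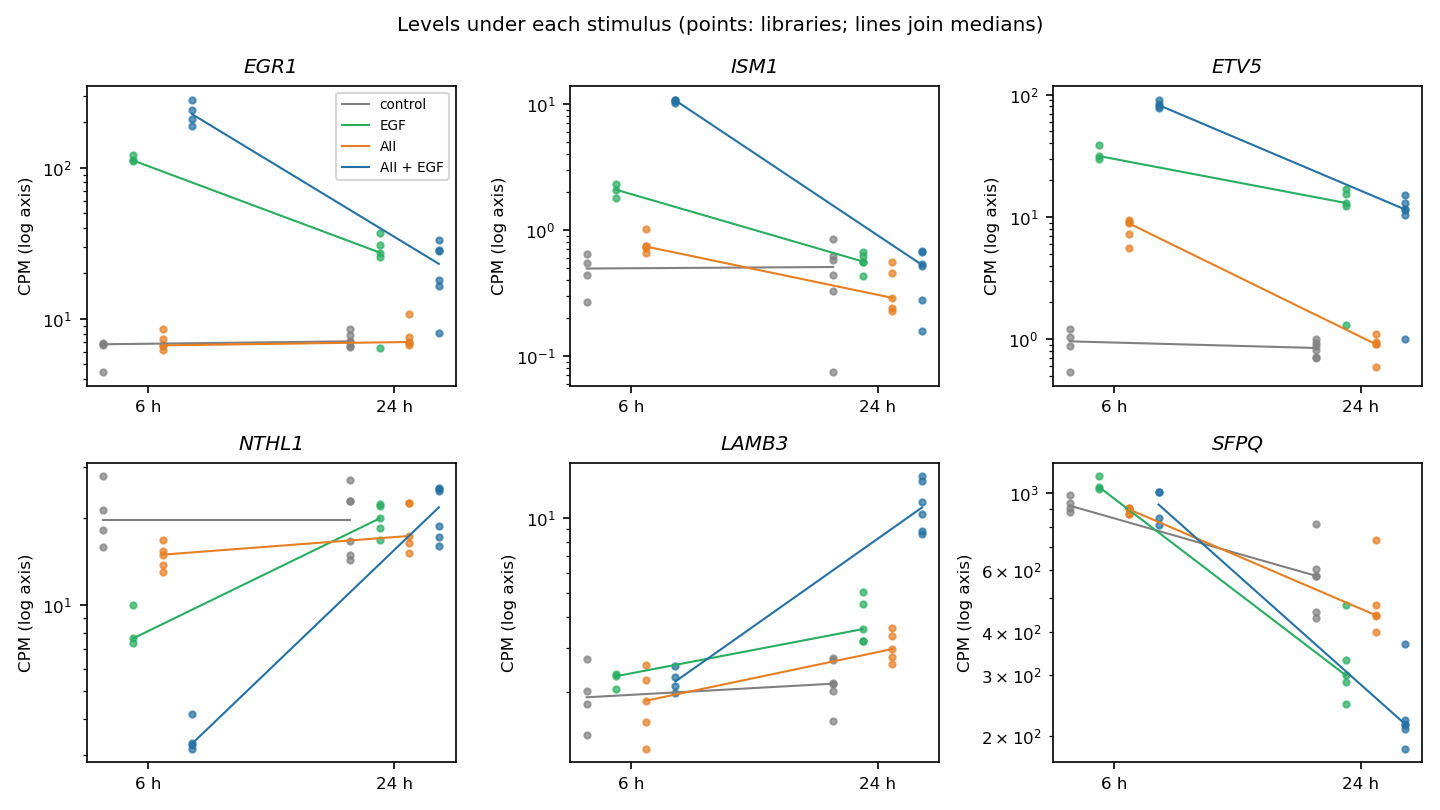
CPM (log axis) of 6 genes at 6 h and 24 h under control, EGF, AII and AII + EGF (points are libraries of the 38-library fit, lines join group medians). EGR1 is raised by EGF and by AII + EGF at 6 h, ISM1 is highest under AII + EGF at 6 h, and LAMB3 is highest under AII + EGF at 24 h.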

How the data were processed

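PolyA RNA of 48 HEK293 samples was sequenced in read pairs. The authors aligned the reads to hg38 with HISAT2 2.1.0 and counted them per Ensembl gene with featureCounts, and the deposited table holds raw gene counts (60610 genes). Strand setting and handling of multimapped reads are not given in the sources used here, so overlapping and antisense genes and close paralogues are uncertain, and the 37 mitochondrial genes are at 0. Gene symbols were matched for 58609 identifiers. Over 1128 pairs of libraries, 4 differed by less than sampling noise (chi-square per degree of freedom 0.397 to 0.505, against at least 3.96 among the 20 libraries used), and their members were left out of the main fit, as was 1 library with a doubtful label.

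Genes were filtered with filterByExpr and fitted with edgeR 4.0.16 (R 4.3.3, TMM factors, robust quasi-likelihood, 4 groups without covariates), checked on simulated data. SE is the log2 fold change divided by the root of F. A call needed an adjusted p under 0.01, 1.5-fold and a mean over 5 CPM (treated group for rises, control for falls, the highest of the 4 groups for differences). Joint and single agents were compared in 38 libraries. DESeq2 1.42.0, other scalings, filters, library sets and a title-run block were tried as alternatives. Replicate numbers follow accession order, and libraries of the same number and time lie in the same title run. Depth was 18.4 M to 26.9 M (1e6) counts per library.

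Named were, among protein-coding genes, the 6 largest differences of each faded and late pattern, the 4 genes with the largest smaller response of the 2 times among those called at both times, EGR1, EGR3, FOS and EGFR, and of each list the 2 members with the largest difference and the 2 with the largest 24 h response over 5 CPM. A few genes the rules name are not reported here. Other list members, and genes with calls of opposite sign, were added after their values were seen. Members, lists and rules were chosen with earlier results of these data known. Promoters came from RefSeq (GRCh38.p14).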

Additional observations from a re-analysis of the deposited data

Results flagged for a closer look

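In groups of 4 to 6 libraries, a library far from the others of its group was found in 45 of 368 groups of named genes (12.2%), where chance gives about 5%, or 1 in 20. AII + EGF 24 h replicate 6 of title run 8 accounted for 19 of them and control 24 h replicate 6, of the same run, for 8. The other 18 were spread over 9 libraries. What sets these libraries apart was not tested.

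The AII + EGF 24 h replicate 6 values were the lowest of their group for MVP (11.8 CPM), ETV5 (1.00), AGTR1 (8070), SLC2A3 (10.7), ENO2 (34.8), ARRDC4 (96), HSPA5 (409), BHLHE40 (54.8), TEF (12.6), PER1 (30.3) and NEFM (3990), a neurofilament gene. They were the highest for IGFBP3 (1.36), MAP2K6 (14.7), SRSF1 (135), LCMT2 (8.71), HNRNPM (300), SFPQ (368), CYP4X1 (14) and POLA1 (116). For the late falls among these, the flagged value lies on the side of the control group. The control 24 h replicate 6 values were the lowest of their group for TXNIP (75.2 CPM), FOS (1.23), DUSP4 (8.02), SLC2A3 (4.08), NOG (1.3), BHLHE40 (34.3) and NEFM (2390), and the highest for KCNA1 (0.137, 3 counts).

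In control 6 h, replicate 6 was apart for CORO6 (14.7 CPM), EGR1 (4.45) and SLC2A3 (1.8), replicate 5 for MVP (2.46), MMP10 (0.641), SLC7A5 (69.8) and TEF (8.87), and replicate 3 for ID3 (13.1), an inhibitor of basic helix-loop-helix factors. In AII + EGF 6 h, replicate 2 was apart for AGTR1 (9390) and PTTG1 (88.7), replicate 3 for SLC2A3 (26.9) and BHLHE40 (188), and replicate 5 for RBL2 (20.5). In the 24 h groups, control replicate 3 was apart for ZFP14 (4.98), ID3 (24.3) and KRT18 (105), a keratin gene, control replicate 2 for SERPINB2 (0.133), and AII + EGF replicate 3 for SPOCK2 (9.54).

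The tests of a difference between 2 time effects flagged 959 genes with a higher and 962 with a lower joint response at 24 h than at 6 h. Against EGF alone the joint change with time was higher for 165 genes and lower for 169, and against AII alone for 651 and 700.

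Of the AII + EGF 6 h libraries outside the fit, replicate 4 lay at 0.776 and replicate 6 at 0.207 on the scale from control 6 h (0) to AII + EGF 6 h (1) over the 2242 genes called at 6 h. Replicate 4 differed from an EGF 6 h library by less than sampling noise, and replicate 6 is the one whose label is in doubt.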

How the results depend on the processing

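The count of 6 h calls (2242), of higher and lower differences (959 and 962) and of faded rises and falls (718 and 639) stayed within 1.5 times under DESeq2, RLE factors, library totals, no filter, an adjusted p of 0.05, no fold or CPM minimum, 38 libraries, a title-run block and each left-out library, whereas counts of 24 h, late and persisting calls moved more. Replicate numbers were given in accession order, and the same number at the same time falls in the same title run in each group. The titles tie libraries of different groups into runs, and the title run was therefore fitted as a block. Depth does not let a fold be read where controls hold few counts (KCNA1, ETV4, SERPINB2). The cause of the shifts was not tested.

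An adjusted p of 0.05 gave 94 late rises, 80 late falls and 658 genes against EGF alone (main 61, 45 and 334). Without the fold minimum there were 978 genes called at 24 h (main 516), 107 late rises, 90 late falls and 217 rises and 86 falls called at both times (main 135 and 41), and without the CPM minimum 893, with 213 rises and 76 falls at both times. The fit of 38 libraries gave 73 late falls. The title-run block gave 688 calls at 24 h, 96 late rises, 68 late falls and 705 genes against EGF alone, and DESeq2 gave 505 of the latter. Under all 48 libraries as labelled there were 462 faded rises, 87 late falls, 74 rises and 26 falls at both times, and 3 and 151 genes against EGF and AII alone (main 334 and 1351). The 24 labelled libraries of the 4 groups gave 406 faded rises and 63 rises and 15 falls at both times. Adding the 6 h library of doubtful label gave 1457 calls at 6 h, 505 higher and 466 lower differences, 290 faded rises, 277 faded falls and 74 rises and 23 falls at both times. Alternatives added after seeing the data were the fit without title run 8 (91 late falls and 68 falls at both times), without runs 7 and 8 (80 and 64) and with only the runs that held both treatments (513 higher differences, 348 faded falls and 28 late falls).

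Leaving out each library in turn gave 405 to 781 calls at 24 h, 42 to 94 late rises, 31 to 101 late falls, 31 to 67 falls at both times and 180 to 358 genes against EGF alone. It left 2029 to 2346 calls at 6 h, 763 to 1191 higher and 799 to 1216 lower differences.

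Of 55 named genes with a called difference, none changed direction in 1925 comparisons with alternatives, and 89 missed the threshold, 19 of them for MMP10. Of 37 without a call, 70 of 1295 passed it and 41 changed sign, always uncalled. The sign changed for LHX1 with library totals (0.016) and, with the 48 or 24 labelled libraries, for ETV4 (1.05 in both), KRT17 (0.58 in both), GJB7 (-0.35 and -0.34), CYP4X1 (-0.35 and -0.34), ENO2 (0.52 in both), ARRDC4 (0.16 in both), PRKCA (0.028 and 0.032) and KRT8 (0.41 in both), and for LHX1 with the 24 (0.0022). With the library of doubtful label GJB7 was at -0.27, CYP4X1 at -0.25 and KRT8 at 0.11. With the title-run block CYP4X1 was at -0.15, MKI67 at 0.11 and KRT8 at 0.11. Without run 8 GJB7 was at -0.16 and CYP4X1 at -0.16, without runs 7 and 8 GJB7 at -0.021, CYP4X1 at -0.30 and KRT8 at 0.037, and with runs that held both treatments CYP4X1 at -0.10, MKI67 at 0.10 and KRT8 at 0.046. With each library left out in turn, MKI67 ranged from -0.26 to 0.013, LHX1 from -0.12 to 0.016, KRT8 from -0.32 to 0.10, GJB7 from -0.10 to 0.22 and CYP4X1 from -0.32 to 0.37.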
